A study of Mus musculus with 47 samples.

Results

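The genes of the heterotrimeric G proteins and of the regulators of G protein signaling (RGS) were examined in single neuropeptide Y (NPY)-positive GABAergic neurons from 2 brain regions, auditory cortex (AC) and hippocampal CA3. The genes were taken by gene symbol, not by their values, with 2 Gα genes left out: 11 Gα genes, the 5 Gβ genes, 10 Gγ genes and 23 genes named Rgs, 49 of the 22800 genes of the count table in all. The cells came from mice of the NPY-hrGFP strain, named NPY-EGFP in the deposited design, in which Npy drives a green fluorescent protein that marked the cells to be sampled. All animals were 3 to 8 weeks old, none had received a treatment that the labels name, and the cytosol of each neuron was drawn into a patch pipette and sequenced as polyA RNA. The comparison was between 10 AC cells and 13 CA3 cells, with 3 CA1 cells beside them. The design names 8 mice for the series but not the mouse of each cell, so a region was taken as 1 sample: values are described with the SD over cells, and no difference between regions was tested.

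A heterotrimeric G protein passes the signal of a receptor into the cell. The receptor loads the Gα subunit with GTP, Gα and the Gβγ pair then act on enzymes and channels, and the signal ends when Gα hydrolyzes its GTP. Gs and Golf raise cyclic AMP, Gi and Go lower it and free Gβγ for potassium and calcium channels, and G12 and G13 act on the cytoskeleton. RGS proteins speed the hydrolysis and so shorten the signal, mainly on Gi/o and Gq, and the R7 group among them (Rgs6, Rgs7, Rgs9, Rgs11) works as a stable dimer with Gβ5.

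The AC cells held 1715012 to 6265431 reads on genes, the CA3 cells 2229519 to 7949918 and the CA1 cells 601781 to 3202430. Levels are log2(count divided by a scran size factor, plus 1), and CPM is the read count scaled to 1000000 reads on genes, in 1 cell or in the summed cells of a region. Bracketed ranges behind summed CPM are exact Poisson 95% intervals, which cover counting error only. Gad1 had at least 10 reads in 10 of 10 AC, 13 of 13 CA3 and 3 of 3 CA1 cells, and the 4 GABAergic markers (Gad1, Gad2, Slc32a1 and Npy) summed to 4794 to 26500.1 CPM in AC and 4376 to 16572 CPM in CA3. Markers of other cells varied. The 6 microglial markers summed to 0 to 3707 CPM in AC and 0 to 1864 CPM in CA3, with at least 10 CPM in 8 of 10 and 8 of 13 cells and Tmem119 at 0. The 5 astrocyte markers reached 1089 CPM in AC, with at least 10 CPM in 4 cells, and at most 0.421 CPM in CA3, with Aqp4 at 0. The 5 oligodendrocyte markers reached 367 CPM in AC and 955 CPM in CA3 with Mog at 0, the 4 pyramidal markers 137 and 204 CPM, the 4 endothelial markers 1.17 and 33.7 CPM with Cldn5, Flt1 and Ly6c1 at 0, and the 5 mural markers 0.583 and 0.715 CPM with Pdgfrb and Kcnj8 at 0. Results are therefore also given for the 6 AC and 10 CA3 cells in which each of these lists of other cell types summed to under 500 CPM.

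Of the 49 genes, 22 were read in at least 10 of the 23 AC and CA3 cells, 17 were read in fewer, and 10 had no read in any of the 26 cells. Called below are differences in mean level, AC minus CA3, of at least 1 on the log2 scale. Among the 22 genes, 5 were called higher in AC (22.7%), where 15.4% of all 5964 genes that passed the same filter were, and 8 were called higher in CA3 (36.4%), against 48.1% of all genes. The 9 others differed by less than 1. Those called higher in AC were Gnai3, Gnal, Rgs4, Gng13 and Gnb4, and those called higher in CA3 were Rgs8, Gnb5, Rgs10, Gng2, Rgs6, Gng7, Gnai1 and Gnai2. In the cells with under 500 CPM of other markers, 4 were called higher in AC and 10 higher in CA3, against 19.9% and 47.1% of all genes there, and Rgs4 differed by 0.0. The median difference was -0.23 over the 22 genes and -0.91 over all genes, so that the median of all genes itself lay lower in AC. The order of these medians turned over all labelled cells (-1.39 and -1.09) and under the filter of the paper (-1.12 and -1.04), and the median of the members was 0.16 by summed CPM and -0.64 to -0.08 without single cells. Relative to that median 7 of the 22 were called higher in AC and 6 higher in CA3, against 29.3% and 29.6% of all genes. The other scalings moved the all-gene median between -0.96 and -0.84. For no gene did the 2 regions separate fully: levels overlapped in each of the 22. Among all 5964 genes they did not overlap in 0.0671%.

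**Figure D1:**
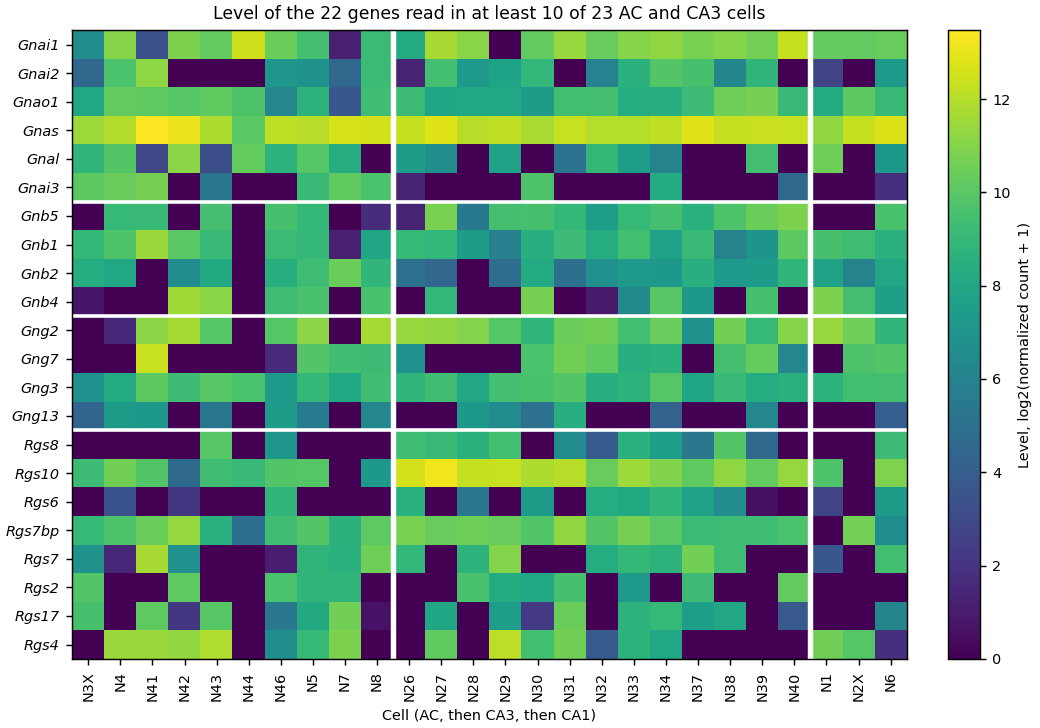
Level of the 22 genes that passed the filter, log2(normalized count + 1), as color, with genes in rows grouped from top to bottom as Gα, Gβ, Gγ and RGS and cells in columns ordered as 10 AC, 13 CA3 and 3 CA1 cells. Gnas, Gnao1, Gng3 and Rgs7bp have reads in all AC and CA3 cells, and Rgs10, Gnb1, Gng2 and Gnb5 in all 13 CA3 cells. In CA3 cell N26 Gnb5 has only 1 read. Most other rows switch between high levels and 0 from cell to cell.

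The start regions of 4 of these genes are shown, 2 called higher in CA3 (Rgs10 and Gnb5) and 2 called higher in AC (Gnai3 and Rgs4), chosen after their values were seen. Each is the RefSeq window from 250 bases before to 50 bases after the gene start as RefSeq places it in GRCm38.p6, printed along the gene's own strand. For Rgs10 the GENCODE model used for the counts of exonic bases starts further upstream, so this window lies inside that model. Capitals mark matches, on either strand, to 4 short promoter motifs: the GC box with the letters GGGCGG, the CCAAT box, the TATA box with the letters TATAAA, and the cAMP response element with the letters TGACGTCA. None of the 4 overlaps another in these windows.
Rgs10 (chr7:128418123-128418422, minus strand): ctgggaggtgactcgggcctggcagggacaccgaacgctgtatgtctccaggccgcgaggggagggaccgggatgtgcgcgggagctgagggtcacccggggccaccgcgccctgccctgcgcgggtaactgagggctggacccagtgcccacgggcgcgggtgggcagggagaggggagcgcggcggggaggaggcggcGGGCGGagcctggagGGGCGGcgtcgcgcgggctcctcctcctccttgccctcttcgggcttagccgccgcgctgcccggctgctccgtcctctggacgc
Gnb5 (chr9:75306038-75306337, plus strand): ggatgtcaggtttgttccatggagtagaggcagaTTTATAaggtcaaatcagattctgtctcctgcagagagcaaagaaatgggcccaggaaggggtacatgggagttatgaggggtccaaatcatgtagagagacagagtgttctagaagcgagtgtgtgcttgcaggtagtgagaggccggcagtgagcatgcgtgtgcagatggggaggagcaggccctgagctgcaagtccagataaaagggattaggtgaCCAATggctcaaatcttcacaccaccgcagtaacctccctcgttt
Gnai3 (chr3:108146103-108146402, minus strand): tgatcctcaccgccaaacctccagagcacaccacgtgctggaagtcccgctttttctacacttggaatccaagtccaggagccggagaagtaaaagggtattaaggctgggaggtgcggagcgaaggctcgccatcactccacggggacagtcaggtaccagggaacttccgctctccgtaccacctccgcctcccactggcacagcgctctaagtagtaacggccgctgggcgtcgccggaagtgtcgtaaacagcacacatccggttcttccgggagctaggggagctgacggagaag
Rgs4 (chr1:169747593-169747892, minus strand): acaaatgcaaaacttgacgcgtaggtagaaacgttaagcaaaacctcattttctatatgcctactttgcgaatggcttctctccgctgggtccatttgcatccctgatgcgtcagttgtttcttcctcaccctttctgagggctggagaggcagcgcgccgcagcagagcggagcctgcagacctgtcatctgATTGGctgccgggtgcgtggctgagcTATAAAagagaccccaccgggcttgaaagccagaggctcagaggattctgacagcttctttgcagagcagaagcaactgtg
The Rgs10 window held 2 GC boxes and none of the other motifs. The Gnb5 and Rgs4 windows each held 1 CCAAT and 1 TATAAA match, and the Gnai3 window held none of the 4. Among 32851 such windows of mouse genes, 35.7% held the GC box, 37.4% CCAAT, 13.6% TATAAA and 1.8% the cAMP response element. These matches differed in place and strand. In Gnb5 the TATAAA match lay on the other strand near the upstream end of the window, and the CCAAT match after the gene start. In Rgs4 both lay before the gene start, with the CCAAT match on the other strand. The part of these motifs in the differences was not tested.

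Among the 6 Gα genes that passed the filter, Gnas, which encodes Gs, varied least over cells, with the smallest SD of level in both regions. Its CPM ran from 286 over a median of 1358 to 2518 in AC cells and from 973 over 1479 to 2133 in CA3 cells, and was 686, 1483 and 2195 in the 3 CA1 cells. The regions overlapped, with levels of 12.13 ± 0.96 in AC (SD, n = 10) and 12.26 ± 0.31 in CA3 (SD, n = 13), and summed values of 1522 CPM [1509 to 1535] and 1531 CPM [1519.7 to 1542]. Nespas and Gm20721 overlap exons of Gnas on the other strand, and the kit does not mark strand, so part of its reads cannot be told from theirs. The difference of -0.13 was -2.45 over all labelled cells and -2.49 under the filter of the paper. Gnal, which encodes Golf, was called higher in AC. It was read in 9 of 10 AC cells, at 0 to 487 CPM with a median of 136, and in 8 of 13 CA3 cells, at 0 to 222 CPM with a median of 20.0. In 4 AC cells it lay above every CA3 cell, and the summed values were 159 CPM [155 to 163] and 62.0 CPM [59.8 to 64.2]. Cell N39 held 58.2% of the CA3 reads, and without it the CA3 value was 30.9 CPM. Without N42, with 34.5% of the AC reads, the AC value was 117 CPM. Levels of 7.33 ± 3.84 and 4.52 ± 3.88 gave a difference of 2.80, which was 2.51 in the cells with under 500 CPM of other markers, 1.53 over all labelled cells, 1.93 under the filter of the paper and 1.36 by summed CPM. Exons of Gnal overlap Mppe1 on the other strand.

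Among the inhibitory Gi/o genes that passed the filter, Gnai3 was called higher in AC, Gnai1 and Gnai2 higher in CA3, and Gnao1 was not called. Gnai3 was found in 7 AC cells (of 10) and 4 CA3 cells (of 13). In AC cells it ran from 0 over a median of 205 to 416 CPM. In CA3 cells the median was 0, and 1 cell (N30) at 234 CPM gave 55.2% of all CA3 reads. In 4 AC cells it lay above every CA3 cell, while 3 AC cells had no read at all. The summed values were 192 CPM [187 to 197] in AC and 24.2 CPM [22.8 to 25.6] in CA3, a ratio of 7.93, and the levels 6.54 ± 4.77 and 1.84 ± 3.44. The difference of 4.71 ran from 4.24 to 5.43 when single cells were left out and was 5.0 in the cells low in other markers, but it was 0.96 over all 19 AC and 21 CA3 cells that the labels name. Among the CA1 cells Gnai3 had a single read. Its gene spans chr3:108107280-108146146 of GRCm38 on the minus strand, and no exon of another gene overlaps it.

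Gnai1 went the other way. It was read in 10 of 10 AC cells at 0.444 to 1599 CPM with a median of 297, and in 12 of 13 CA3 cells at 0 to 1343 CPM with a median of 649.6. The AC maximum, in cell N44, exceeded every CA3 cell. N44 held 44.5% of the AC reads, and without it the summed AC value was 214 CPM. The other AC cells lay between 0.444 and 628 CPM. Summed values were 348 CPM [342 to 354] and 609.6 CPM [603 to 617], the levels 8.46 ± 3.64 and 10 ± 3.15, and the difference -1.54, or -0.63 relative to all genes. It was -2.74 over all labelled cells, -0.81 by summed CPM, -0.97 without cell N41, -0.73 without N7 and -2.37 without N29, so the call rests on single cells. The 3 CA1 cells lay close together at 336, 347 and 419 CPM. Gnai2 was read in 7 of 10 and 11 of 13 cells and was called higher in CA3 by 1.14 on the log2 scale, yet its summed values were 116 and 109.6 CPM, a log2 ratio of 0.08, and 56.9% of its AC reads came from cell N41. Its difference was -1.79 without N41, and its size fell under 1 when any of 9 cells (N42, N43, N44, N27, N30, N33, N34, N37 or N39) was left out, down to -0.55 without N42. Gnao1, the Go gene of neurons, was read in every AC and CA3 cell, at 3.99 to 371 CPM in AC and 49 to 528 CPM in CA3, and its levels of 8.62 ± 2.15 and 8.91 ± 0.99 differed by less than the spread between cells, though by -1.44 over all labelled cells.

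Within a cell, shares of reads per kilobase of exon do not depend on the scaling between cells. Of the Gα reads per kb, Gnas held 37.2% ± 15.2 in AC and 38.2% ± 16.8 in CA3, and Gnai1 28.7% ± 26.9 and 43.2% ± 19.3 (SD over cells). Gnai1 was the leading Gα gene in 4 AC cells (of 10) and 10 CA3 cells (of 13), and Gnas in 5 and 3. Without division by length Gnas led in 9 of 10 and 13 of 13 cells. Gi/o genes together made up 56.7% ± 16.6 in AC and 58.2% ± 17.4 in CA3, and Gnas with Gnal 41.5% ± 14.9 and 39.5% ± 17.8. These shares differed between the regions by less than their SD over cells. Without division by length Gnas alone held 57.1% in AC and 60.9% in CA3, so which class leads depends on that division. Within the Gi/o share the means of Gnai3 and Gnai1 lay further apart, yet still within the SD of the AC cells. Gnai3 held 32.7% ± 35.4 of it in AC and 2.97% ± 8.31 in CA3, and Gnai1 47.8% ± 38.3 and 69.6% ± 25.4. Gnai3 led among the Gi/o genes in 3 AC cells and in 0 CA3 cells, and Gnai1 in 6 and 12. In CA1 Gnai1 held 84.9% ± 6.96 and led in 3 of 3 cells.

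The remaining Gα genes were sparse. Gnaz was read in 1 AC and 6 CA3 cells, Gna12 in 0 and 2, Gna15 in 1 and 0 with a single read, and Gna14 in none. Gna13, which encodes the α subunit of G13, was read in 3 AC cells (of 10) and 2 CA3 cells (of 13) but in 3 of 3 CA1 cells, where the summed value was 148 CPM against 58.0 CPM in AC and 16.5 CPM in CA3. Single cells held 86.3% of the AC reads (N42) and 97.0% of the CA3 reads (N28), and without them the values were 8.94 and 0.516 CPM. G12/13 genes made up 12.1% ± 12.2 of the Gα reads per kb in CA1 and 1.88% ± 5.11 and 2.22% ± 5.24 in AC and CA3. All 3 CA1 cells also had astrocyte markers, at 82.9 to 882 CPM, and their part in the Gna13 value was not tested.

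Gnb5 encodes the atypical Gβ that partners the R7 RGS proteins. It was read in 6 AC cells (of 10) and 13 CA3 cells (of 13). CPM went from 0 over a median of 61.3 to 220.1 in AC and from 0.449 over 208 to 486 in CA3. By CPM it lay in 6 CA3 cells above every AC cell (5 by level), and in 4 AC cells, all without a read, below every CA3 cell. Summed values were 73.6 CPM [70.7 to 76.5] and 246 CPM [242 to 251], and levels 4.78 ± 4.71 and 8.55 ± 2.6. The difference of -3.77 ran from -4.37 to -3.24 when single cells were left out and was -5.09 in the cells low in other markers and -1.74 by summed CPM. Of the Gβ reads per kb, Gnb5 held 19.2% ± 19.2 in AC and 52.3% ± 25.7 in CA3, and it led in 2 and 9 cells. Gβ shares in AC leave out cell N44, which had no Gβ read. Without division by length Gnb5 held 13.4% and 43.1%. It then led in 1 and 5 cells, Gnb1 in 3 and 6, Gnb4 in 4 and 2, and Gnb2 in 1 and 0. An antisense gene model, Gm19531, overlaps an exon of Gnb5 (chr9:75306288-75345876 of GRCm38, plus strand), so reads in that part, 248 of 3115 exonic bases, cannot be told apart.

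Among the other Gβ genes, Gnb1, the common neuronal Gβ, was read in 9 of 10 AC cells at 0 to 613 CPM with a median of 164, and in 13 of 13 CA3 cells at 18 to 290 CPM with a median of 109. The summed values of 190 and 114 CPM were higher in AC, the mean levels of 7.65 ± 3.84 and 8.2 ± 1.3 were higher in CA3, and the regions overlapped widely. The difference of -0.55 was -2.31 in the cells low in other markers, -3.79 over all labelled cells and -2.77 under the filter of the paper, and 0.74 by summed CPM. Gnb4 was called higher in AC by 1.06 on the log2 scale, at 0 to 671 CPM with a median of 90.7 against 0 to 471 CPM with a median of 0.319, and was read in 6 of 10 and 7 of 13 cells. Over all labelled cells its difference was -0.69, so the sign turned with the choice of cells, and it was under 1 when any of 12 cells (N42, N43, N46, N5, N8, N26, N28, N29, N31, N32, N38 or N40) was left out, from 0.35 without N42 to 0.79 without N32. It was 1.63 without N4, N41, N44 or N7 and 1.61 without N30. Gnb2 was read in 8 of 10 and 12 of 13 cells, at 105 and 50.6 CPM, with levels of 6.82 and 6.22, a difference of 0.60 that was 1.36 without N41 or N44, 1.06 by summed CPM and -0.99 over all labelled cells. Its share of the Gβ reads per kb was 32.2% ± 31 in AC and 10.6% ± 8.15 in CA3, and it led in 3 AC cells and 0 CA3 cells. The annotation overlaps Gnb2 with Epo. Gnb3, the cone photoreceptor Gβ, had no read. One AC cell, N44, had no read on any Gβ gene, although it had 8 of the 49 genes and Gng3 and Gnai1 among them. In the 3 CA1 cells Gnb1, Gnb2 and Gnb4 were each read in every cell and Gnb5 in 1.

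Gγ genes encode the small subunit that anchors Gβγ to the membrane. Gng3 was read in every one of the 26 cells, at 36.5 to 308 CPM in AC, 74.5 to 304 CPM in CA3 and 119.6 to 223 CPM in CA1. The medians of 148 and 139.9 CPM in AC and CA3 lay close together, the summed values were 159 CPM [155 to 163] in both, and the levels of 8.77 ± 1.14 and 8.94 ± 0.67 did not differ beyond their spread, though over all labelled cells the difference was -1.91. Its exons overlap those of Bscl2 on the other strand. Gng2 was read in 7 AC cells (of 10) and 13 CA3 cells (of 13), at 0 to 923 CPM with a median of 288 and at 34.7 to 802 CPM with a median of 417. The 3 AC cells without reads and one with 0.583 CPM lay below every CA3 cell, whereas the cells with reads overlapped. The mean levels were 6.70 ± 5.48 and 10.06 ± 1.26, a difference of -3.36, but the summed values of 409 and 363 CPM lay the other way, with a log2 ratio of 0.17. Cell N8 held 41.6% of the AC reads, and without it the AC value was 293 CPM, below CA3. The 2 regions thus differed for Gng2 in the number of cells without reads more than in the level of cells with reads. Gng7, the partner of Golf in striatum, was read in 5 and 9 cells, with a difference of -1.93, and 69.9% of its AC reads came from N41. Its summed values were 210.4 and 176 CPM, and 72.7 CPM in AC without N41. Gng13 was called higher in AC by 1.45 on the log2 scale at low values, 17.9 and 16.1 CPM, read in 7 and 6 cells, and its exons overlap Chtf18. Cell N31 held 44.1% of the CA3 reads of Gng13, and without it the CA3 value was 9.7 CPM. The call ended over all labelled cells (0.30), under the filter of the paper (0.54), after thinning (0.72) and by summed CPM (0.15). Gng10 was read in 4 of 10 AC, 3 of 13 CA3 and 3 of 3 CA1 cells, from 0 to 1164 CPM in AC, 0 to 256 CPM in CA3 and 112 to 231 CPM in CA1, and Gm20503 overlaps 946 of its 1314 exonic bases, where reads of the pair cannot be told apart. Gng4, Gng5 and Gng12 were read in 9, 7 and 1 of the 23 cells and Gng8 and Gng11 in none. By share of Gγ reads per kb, Gng3 held 38.7% ± 31.1 in AC and 36.6% ± 19.8 in CA3, and Gng2 18.3% ± 20.6 and 30.8% ± 16. Without division by length Gng3 held 32.1% and 23.3% and led in 3 and 1 cells. Gng2 then held 28.5% and 46.9% and led in 3 and 9, so the order in CA3 turned.

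The gene with the most CA3 cells above every AC cell was Rgs10, which encodes a small RGS protein that acts on Gi/o. It was read in 13 CA3 cells (of 13) and 9 AC cells (of 10). The CA3 values ran from 330.3 over a median of 997 to 2284 CPM, the AC values from 0 over 198 to 482 CPM. In 10 of 13 CA3 cells Rgs10 lay above every AC cell, and in 9 of 10 AC cells below every CA3 cell. Only cell N4 of AC reached into the CA3 range. Summed values were 158 CPM [154 to 162] in AC and 900.1 CPM [892 to 909] in CA3, a ratio of 5.71, and levels 7.97 ± 3.30 and 11.53 ± 0.95. The difference of -3.56 ran from -3.85 to -2.67 when single cells were left out, was -3.08 over all labelled cells and -3.96 in the cells low in other markers. In the 3 CA1 cells Rgs10 was at 0, 243 and 594 CPM. Microglia are known for high Rgs10, so their markers are given beside it. In AC cell N42, which had the highest microglial sum of all (3707 CPM), Rgs10 was 5.21 CPM, and in 5 CA3 cells with microglial sums of 0 to 0.947 CPM Rgs10 was 330.3 to 1611 CPM. The CA3 cells with the highest microglial sums, N27 (1864 CPM) and N26 (483 CPM), also had the highest Rgs10, 2284 and 1745 CPM. The part of microglial RNA in the Rgs10 values was not tested. Rgs10 lies at chr7:128373621-128418758 of GRCm38 on the minus strand with no exon of another gene over it.

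Shares of the RGS family are over the 21 RGS genes without the anchors Rgs7bp and Rgs9bp. Among these Rgs10 was the leading gene by reads per kb in 13 of 13 CA3 cells, where it held 78.9% ± 13 and no less than 52%, and in 5 of 10 AC cells, where it held 35.2% ± 27.4. Without division by length the shares were 59.0% and 20.3% and it led in 12 and 3 cells. With the anchors counted in, an alternative chosen after seeing the data, Rgs10 held 73.4% ± 12.2 in CA3, no less than 48.8%, and 32.7% ± 26.6 in AC, and led in 13 and 5 cells. Rgs4, which acts on Gi/o and Gq and is widespread in cortex, held 26.9% ± 26.2 in AC and 5.40% ± 8.29 in CA3 and led in 3 AC cells and 0 CA3 cells. In AC cells 4 different genes led, in CA3 cells 1.

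**Figure D2:**
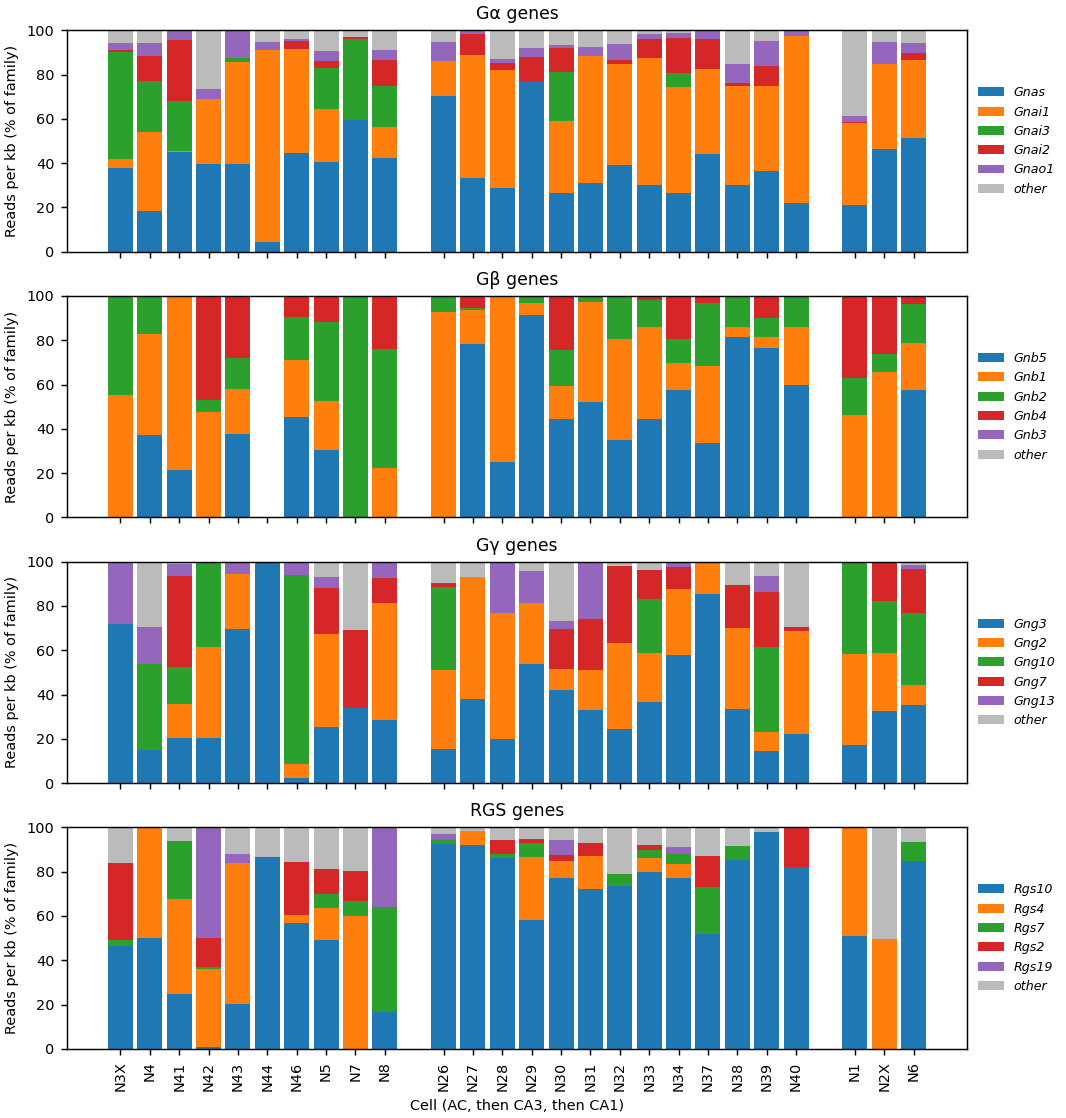
Share of each gene in the reads per kilobase of its family (y axis, percent) in each of the 26 cells (x axis, AC, CA3 and CA1), with 1 panel each for the Gα, Gβ, Gγ and RGS genes (without the anchors Rgs7bp and Rgs9bp) and the 5 genes with the highest mean share colored. Rgs10 makes up 52% to 97.8% of the RGS bar in every CA3 cell, the leading RGS gene changes between AC cells, and the empty Gβ bar is AC cell N44.

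Rgs8, which is known from Purkinje cells, was read in 2 AC cells (of 10) and 11 CA3 cells (of 13). In AC it was at 303 CPM in N43, 38.8 CPM in N46 and 0 in the others, and in CA3 it ran from 0 over a median of 56.1 to 286 CPM. The highest AC cell thus lay above every CA3 cell while most AC cells had no read. N43 held 88.2% of the AC reads, summed values were 31.5 and 77.6 CPM, and the levels of 1.70 ± 3.65 and 6.37 ± 3.42 differed by -4.67, the largest called difference toward CA3. It was -1.30 by summed CPM and -1.89 over all labelled cells, with reads in 4 of the 19 from AC and 11 of the 21 from CA3. Rgs4 was called higher in AC by 2.41 on the log2 scale. It was read in 7 of 10 AC cells at 0 to 1149 CPM with a median of 362, and in 7 of 13 CA3 cells at 0 to 1423 CPM with a median of 4.47. The CA3 maximum, in N29, gave 54.2% of the CA3 reads. Summed values were 344 CPM [338 to 350.1] and 170.1 CPM [166 to 174]. The difference was 1.42 over all labelled cells, 1.02 by summed CPM and 0.0 in the cells with under 500 CPM of other markers, which leave out 4 AC cells with Rgs4 at 28.3, 552, 618 and 864 CPM. The part of those markers in the Rgs4 difference was not tested. In CA1 it was at 0.813, 278 and 422 CPM. Rgs2, an RGS with a preference for Gq, held 9.70% and 3.84% of the RGS reads per kb, and its levels of 4.74 ± 5.01 and 4.78 ± 4.67 differed by -0.04, with values from 0 to 314 CPM in AC and 0 to 325 CPM in CA3. It was not read in CA1.

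**Figure D3:**
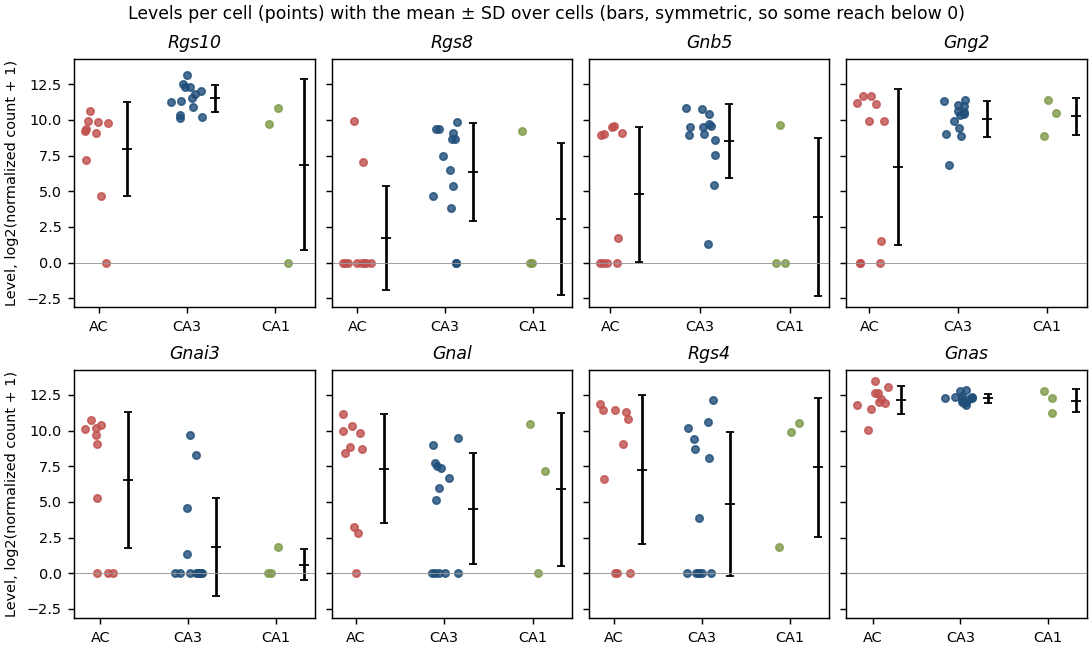
Level (y axis, log2(normalized count + 1)) of 8 genes in each AC, CA3 and CA1 cell (points), with the mean ± SD over cells (bars). In Rgs10, 10 CA3 cells sit above every AC cell, in Gnb5 5 do by level, in Gnai3 4 AC cells sit above every CA3 cell, and the Gnas points of the regions overlap.

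Rgs6, an R7 member, was read in 3 of 10 AC cells, where 98.2% of its reads came from N46 at 136 CPM, and in 9 of 13 CA3 cells at 0 to 149 CPM with a median of 30, for levels of 1.45 ± 2.87 and 4.73 ± 3.92. The difference of -3.28 was -5.56 in the cells low in other markers, -2.01 over all labelled cells and -1.80 by summed CPM. Rgs7, the R7 member most read in AC, was found in 8 of 10 and 8 of 13 cells, with levels of 5.59 and 5.73, while Rgs11 was read in 2 and 5 cells and Rgs9, known from striatum, in 1 AC cell with a single read. Rgs7bp, which anchors R7 proteins to the membrane, was read in every AC and CA3 cell, at 8.19 to 574 CPM and 174 to 652 CPM, with levels of 9.20 ± 1.73 and 10.08 ± 0.63, a difference of -0.88 that was -1.02 without N41, -1.12 without N42 and -1.56 in the cells low in other markers. The Rgs7bp difference was -0.13 over all labelled cells and -0.40 both under the filter of the paper and by summed CPM. At a limit of 10 reads, Gnb5 was found in 12 CA3 cells (of 13) and 5 AC cells (of 10), and at least 1 R7 gene in 9 and 7. Both were found in 8 and 3, an R7 gene without Gnb5 in 1 and 4, and Gnb5 without any R7 gene in 4 and 2. Whether Gnb5 and R7 genes go together in cells beyond these totals was not tested. At least 2 of the 4 R7 genes were found in 8 CA3 cells (4 with 2 and 4 with 3) and in 1 AC cell.

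**Figure D4:**
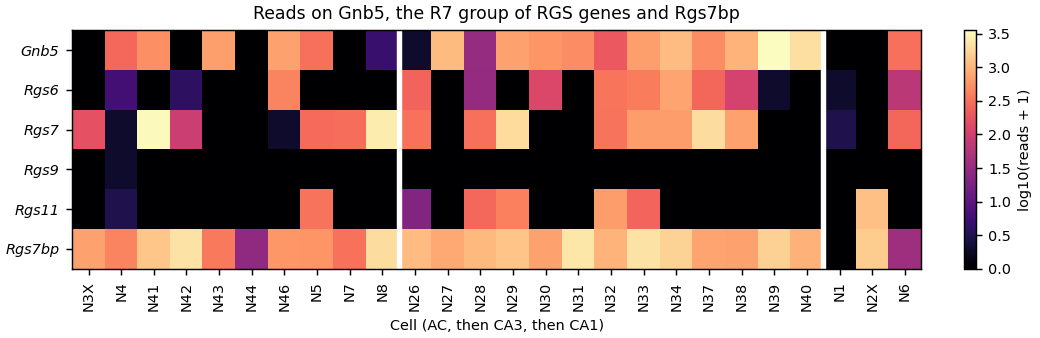
Reads, as color on a log10(reads + 1) scale, on Gnb5, the 4 R7 genes and Rgs7bp (rows) in the 10 AC, 13 CA3 and 3 CA1 cells (columns). Rgs7bp is read in all AC and CA3 cells, Gnb5 has at least 10 reads in 12 of 13 CA3 and 5 of 10 AC cells, and Rgs9 has 1 read in a single AC cell.

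The other RGS genes were not called or were read in fewer than 10 cells. Rgs17, an RGS of the Rz group, differed by 0.63 on the log2 scale (1.26 without N4 or N44, 1.19 without N8, 1.09 without N31 and 1.02 without N42) and was read in 8 of 10 and 9 of 13 cells. Rgs19, of the same group, was read in 4 and 4 cells but held 49.7% of the RGS reads per kb in AC cell N42. Rgs3, Rgs5, Rgs12 and Rgs16 were read in 5, 4, 6 and 5 of the 23 cells and Rgs14 and Rgs20 in 1 each. Rgs1, Rgs13, Rgs18, Rgs21, Rgs22 and Rgs9bp had no read. In all, an AC cell held reads of 19.3 ± 4.62 of the 49 genes and a CA3 cell of 20.8 ± 3.08, from 8 (N44) to 24 and from 16 to 26. Over all genes the means were 4758 and 5860, so that per 1000 genes read the AC cells held 4.16 ± 1.19 of the 49 and the CA3 cells 3.63 ± 0.517. After every cell was thinned to 601781 reads, the depth of the shallowest, the numbers were 17.9 and 20.3, or 4.28 and 3.87 per 1000 genes. The 4 genes Gnb1, Gnb5, Gng2 and Rgs10 of the 22 were read in all 13 CA3 cells but not in all AC cells. Of all genes that passed the filter, 9.52% were. The reverse held for Gnai1 alone, with 1 read in N7 and 9 reads in N41. At a limit of 10 reads Gnai1 was found in 8 of 10 AC and 12 of 13 CA3 cells. No share of all genes was counted for the reverse.

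Other genes of the pathway were counted on 2 lists. Of 17 genes of receptor kinases, arrestins, activators and phosducin-like chaperones, 8 passed the filter: 2 were called higher in AC, Adrbk1 (G protein receptor kinase 2) by 2.86 and Gpsm2 by 1.89 on the log2 scale, and 3 higher in CA3, among them Pdcl3 at -3.31 and Gpr158, which binds R7 RGS proteins, at -2.78. All genes were called at 15.4% and 48.1%. Of 23 effector genes 10 passed the filter: 5 were called higher in AC, led by the adenylyl cyclase Adcy1 (2.41) and the phospholipase Plcb1 (2.04), and 2 higher in CA3, the cyclase Adcy3 (-2.13) and the guanine nucleotide exchange factor Arhgef11 (-1.42). By summed CPM Adcy3 (77.4 in AC and 76.2 in CA3), Arhgef11 (124 and 93.8) and Gpsm1 (108 and 51.6), the other accessory gene called toward CA3, lay higher in AC. Without cell N3X, which held 45.6% and 54.5% of their AC reads, Adcy3 and Arhgef11 were at 47.8 and 64.2 CPM in AC, below CA3. Adcy2, named after its values were seen, missed the filter by 1 cell and differed by -5.39, with 3 reads in 1 AC cell (0.0881 CPM) and reads in 8 CA3 cells (149 CPM). The cyclases Adcy8 and Adcy9, also below the filter and named after their values were seen, went the other way. Adcy8 differed by 3.54 (92.6 CPM in AC and 0.0819 in CA3) and Adcy9 by 2.35 (33.4 and 1.19 CPM). Each was read in 4 AC cells and 1 CA3 cell. The median differences of the 2 lists were -0.17 and 0.31, against -0.91 over all genes.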

How the data were processed

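Single-cell cytosol was amplified with Nextera XT by the authors, who trimmed reads with Trimmomatic and Flexbar, aligned them with STAR to Ensembl GRCm38 and counted them per gene (HTSeq in the paper, featureCounts in the labels). The authors deposited 1 table of raw counts, not normalized. Symbols follow Ensembl version 86, with identifiers of 1 shared symbol averaged. The 49 genes, gene lists and the 10 AC and 13 CA3 cells were chosen with earlier results of these data known, and the cells are those that earlier work had matched to the cells the authors displayed, fewer in CA3 than the study kept, and the match was not rechecked. Of the Gα family 2 genes, and of the marker lists 2 genes, are not reported here. Size factors came from scran 1.30.0 (pool sizes 10 and 20, 26 cells), levels were log2(count / factor + 1), and genes with a read in 10 of 23 cells passed the filter. Every passing gene is named, and cell ranges are given for those with the highest family share or the largest difference. Lengths, overlaps and coordinates came from GENCODE vM21, which matched all 49 symbols, and start regions from RefSeq. The difference step was checked on simulated counts. Cells are not replicates of a region, so nothing was tested. Tried alternatives were library size, edgeR 4.0.16 TMM and DESeq2 1.42.0 factors, other pseudocounts (10 and 0.1), no filter, thinning, summed CPM, all labelled cells, the filter of the paper and leaving out single cells. Columns N4 and N4X of AC differed by a chi-square per degree of freedom of 2.20, against at least 37.0 for 399 other pairs, and were averaged as 1 cell among the labelled cells.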

Additional observations from a re-analysis of the deposited data

Results flagged for a closer look

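In 2 genes 1 AC cell stood apart from the other 9, at a limit set to mark about 1 in 20 groups by chance in normally distributed values, which levels with many zeros need not be. Rgs6 had a level of 8.88 in N46, where the others lay between 0 and 3.40. Rgs7bp had a level of 4.93 in N44, where the others lay between 8.55 and 11.36. Without N46 the Rgs6 difference was -4.11, and without N44 the Rgs7bp difference was -0.40.

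In columns outside the 26 cells, 2 genes that had no read in the 26 cells were read. Gng11 had 162 reads in the NPY-negative CA3 cell N16, 53 reads in CA3 cell N18 and 303 reads in CA3 cell N23. Rgs22 had 3 reads in CA3 cell N13.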

How the results depend on the processing

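Nothing was tested, so a result is said to change where its count moved by over 1.5 times, the sign of a called difference turned or a share moved by over 1 SD. The 5 genes called higher in AC became 3 with a pseudocount of 10, 8 without the filter, 2 over all labelled cells, 3 under the filter of the paper and 3 after thinning (all genes 12%, 13.6%, 8.1%, 10.1% and 13.2%). The 8 called higher in CA3 became 13 without the filter, 15 over all labelled cells, 15 under the filter of the paper and 4 by summed CPM (all genes 32.8%, 52.6%, 51.2% and 23.1%). By summed CPM 19.3% of all genes were called higher in AC and 23.1% higher in CA3, against 15.4% and 48.1%. Leaving out single cells gave 4 to 7 and 7 to 8. Among called genes the sign turned for Gnai2 (0.08), Gng2 (0.17) and Gng7 (0.26) by summed CPM, for Gnb4 over all labelled cells (-0.69) and under the filter of the paper (-0.55), and for Rgs4 in the cells low in other markers (0.0), an alternative chosen after seeing the data. Of the 9 genes not called, 7 changed sign under at least 1 of the listed alternatives or without 1 of the cells. Rgs7bp, not among the 7, turned from -0.88 to 0.03 relative to the median of all genes. Without division by length Gnas held 57.1% in AC and 60.9% in CA3 and Rgs10 59.0% in CA3. Rgs10 held 53.6% there over all labelled cells and 56.3% under the filter of the paper. Over all labelled cells 13.5 of the 49 genes were read per AC cell and 17.5 per CA3 cell. Of those 19 AC and 21 CA3 cells, 13 and 14 had at least 10 reads of Gad1. The causes were not tested. No paired analysis was possible because the columns carry no replicate numbers that the labels share between regions and no result comes from a test. A gene without reads in a region may have been present at up to 3 reads, and where cells at 0 stand beside cells of high CPM, single levels are unsure.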
